A study of Rattus norvegicus with 15 samples.

Results

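Transcripts of synaptic vesicle release and endocytosis were compared between Wistar Audiogenic Rats (WAR), a Wistar-derived strain selected for seizures evoked by sound, and Wistar rats, in the inferior colliculus (IC), the midbrain auditory center where these seizures start. A list of 40 genes was followed through the probe sets that carry their symbols on the platform, with the brightest probe set kept for each gene. Of the 40 genes, 39 were measured, out of 14506 genes tested, and *Napb* is not analysed here. They fall into 10 vesicle proteins, 11 SNARE and priming genes, 5 active zone genes and 13 genes of clathrin endocytosis. The IC was collected from 12-week-old male rats, and 15 Affymetrix rat gene arrays were grouped by the label of each array. Wistar N (n = 4) and WAR N (n = 4) were naïve, labelled as exposed to nothing. Wistar S (n = 2) and WAR S (n = 5) were exposed to auditory stimulation, with the tissue taken 60 min later. The study describes stimulated WAR as having seizures and stimulated Wistar rats as having none, so sound and seizure cannot be told apart. A general note of the submitters describes all animals as stimulated, and the label of each array was followed instead. The WAR came from the colony of the School of Medicine of Ribeirão Preto and the Wistar rats, per the labels, from Charles River Laboratories, which would leave strain and provider not to be told apart. The study's methods name the same animal facility for both strains and count more stimulated rats than there are stimulated arrays here. The labels call every array a biological replicate, without saying whether tissue of several rats was pooled.

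At the presynaptic terminal, vesicles filled with transmitter are tethered, docked at the active zone and primed for release. Calcium entering the terminal is sensed by synaptotagmins, and SNARE proteins of the vesicle and of the plasma membrane zip together and fuse the membranes. The vesicle membrane is then retrieved, in part by clathrin and its adaptor AP-2, and cut from the surface by dynamin. Auditory neurons fire at high rates and depend on this cycle, and the vesicle protein SV2A is the binding site of the antiseizure drug levetiracetam.

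Values are log2 signals. The stimulated arrays shared identical values in 12 of the 39 genes, and the naïve and stimulated arrays appear to have been normalized apart, so the strains were compared only within the naïve or within the stimulated arrays and levels were not set side by side across them. The differences are WAR minus Wistar, a gene is called where its limma p, adjusted over all 14506 genes, is at most 0.05, and p-values measure only the spread between these arrays. Wistar N replicate 1 stood apart, with the lowest weight of the 15 arrays (0.101, where an array of average spread has 1). It held the highest value of the 4 Wistar N arrays in 19 of the 39 genes, and WAR N replicate 3 held the lowest value of the WAR N arrays in 27. In stimulated rats, WAR S replicate 4 was the lowest of 5 in 24 genes. The midbrain gene *Tfap2d* lay at 10.81 to 11.27 in all arrays, and *Neurod6*, the only listed forebrain gene measured, at 5.12 to 5.49. Of the other midbrain tectum markers, *Slc17a6* (mean 11.21), *Meis2* (10.59) and *Gata3* (8.31) were brighter than *Gata2* (6.78), *Tfap2b* (6.71) and *Lhx1* (6.64). Signals of different probe sets cannot be read as relative amounts, so these values do not settle the tissue's identity.

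The strain differences of these genes that passed the test were in naïve rats, and nearly all were lower in WAR. Between WAR N and Wistar N, 11 of the 39 genes (28.2%) were called, against 20.9% of all genes tested. Of these, 10 (25.6%) were lower in WAR N, against 9.38% of all genes, and 1, *Sv2b*, was higher, against 11.6% of all genes. The 10 lower genes were *Syn2*, *Syp*, *Syt2*, *Stx1a*, *Nsf*, *Cplx1*, *Dnm1*, *Synj1*, *Ap2m1* and *Ap2a1*. The median log2 difference of the 39 genes was −0.14, with 13 above 0, where the median of all genes was 0.02, with 54.5% above 0. The 4 WAR N and the 4 Wistar N values did not overlap in 10 of the 39 genes (25.6%), against 13.4% of all genes. At a fold change of at least 2 with an unadjusted p of at most 0.05, *Ap2m1* alone was called, where 1.76% of all genes were. The genes were listed with earlier results of these arrays known, so that these counts describe the list and are not a test of it. Without Wistar N replicate 1, 17 of the 39 genes were called, the 11 above and 6 more (*Amph*, *Cplx2*, *Napa*, *Snap25*, *Syngr1* and *Vamp1*) that were all higher in WAR N, and the share over all genes was then 41.1%. In a model of the naïve arrays alone, without the spread of the stimulated arrays and their ties, 7 of the 39 genes were called (6 lower, 1 higher), against 6.06% of all genes.

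**Figure D1:**
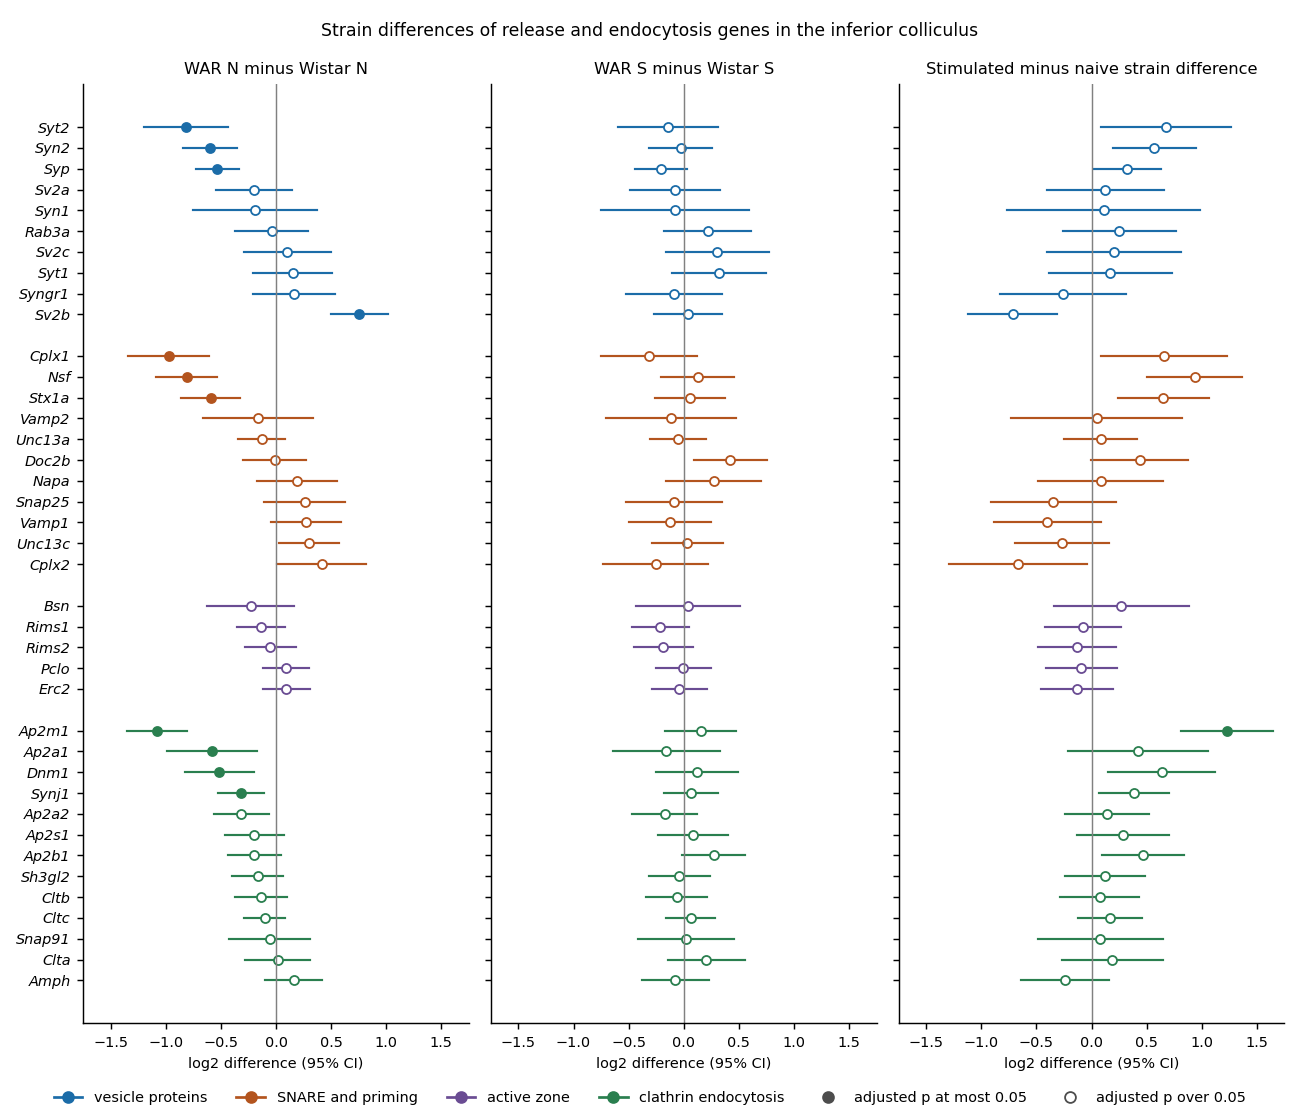
Log2 difference between WAR and Wistar for each of the 39 genes (rows, colored by class) in naïve rats, in stimulated rats, and the stimulated minus the naïve difference. Points are limma estimates, lines are 95% confidence intervals, and filled points have an adjusted p of at most 0.05: 11 in the naïve panel, 0 in the stimulated panel and 1, *Ap2m1*, in the panel of the difference.

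The promoters of *Ap2m1*, *Nsf*, *Cplx1* and *Sv2b* are shown because the naïve call of these 4 genes passed in every alternative setting tried, the first 3 as lower and *Sv2b* as higher in WAR N. Each is the 250 bases before the annotated start in RefSeq (build GRCr8), read 5′ to 3′ on the strand of the gene. Capitals mark each GC box (GGGCGG) and CCAAT box (CCAAT) on either strand. They are *Ap2m1* at chr11:93868481-93868730 (minus strand), *Nsf* at chr10:89357384-89357633 (minus strand), *Cplx1* at chr14:1328823-1329072 (plus strand) and *Sv2b* at chr1:138562259-138562508 (minus strand).
Ap2m1: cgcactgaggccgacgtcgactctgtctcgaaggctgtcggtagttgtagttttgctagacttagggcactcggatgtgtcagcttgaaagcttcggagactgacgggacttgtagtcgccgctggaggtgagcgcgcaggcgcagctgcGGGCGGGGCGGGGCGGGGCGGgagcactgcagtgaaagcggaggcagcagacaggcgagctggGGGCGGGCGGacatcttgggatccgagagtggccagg
Nsf: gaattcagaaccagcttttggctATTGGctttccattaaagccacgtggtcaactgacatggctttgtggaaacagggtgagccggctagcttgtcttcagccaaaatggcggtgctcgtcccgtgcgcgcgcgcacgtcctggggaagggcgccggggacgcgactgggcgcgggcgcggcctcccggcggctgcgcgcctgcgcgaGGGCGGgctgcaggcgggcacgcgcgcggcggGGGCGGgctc
Cplx1: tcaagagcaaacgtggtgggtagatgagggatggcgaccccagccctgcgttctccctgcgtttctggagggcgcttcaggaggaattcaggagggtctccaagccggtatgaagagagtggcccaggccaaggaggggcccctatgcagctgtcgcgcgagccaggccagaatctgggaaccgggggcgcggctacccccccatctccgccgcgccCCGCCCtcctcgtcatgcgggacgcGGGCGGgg
Sv2b: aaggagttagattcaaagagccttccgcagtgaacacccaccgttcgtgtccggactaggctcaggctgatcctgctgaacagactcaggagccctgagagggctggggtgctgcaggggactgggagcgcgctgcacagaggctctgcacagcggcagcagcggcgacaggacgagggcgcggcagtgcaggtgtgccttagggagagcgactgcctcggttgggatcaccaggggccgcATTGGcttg
The window of *Ap2m1* held 6 GC boxes, counted with overlaps, those of *Nsf* and *Cplx1* held 2 each, and that of *Sv2b* held none and 1 CCAAT box. Of the 39 genes, 34 had a window, and 23 of these (67.6%) held a GC box, against 30.5% of 33469 windows of that length and 47.3% of the 11968 windows of genes on the array. Among the 10 genes lower in WAR N, 7 windows held a GC box. The cAMP response element (TGACGTCA) was found in 6 of the 34 windows (17.6%), against 1.59% of all windows and 2.28% of those of genes on the array. These were the windows of *Syn1*, *Vamp1*, *Napa*, *Sh3gl2*, *Ap2b1* and *Cltb*, and it was in 0 of the 10 lower genes. A CCAAT box was in 9 windows (26.5%, against 34.0% of all windows and 35.6% of those of genes on the array). The TATA box TATAAA was in 0 (against 12.9% and 11.3%). The EGR motif GCGTGGGCG, which can overlap a GC box, was in 1 (2.94%, against 0.478% and 0.769%), that of *Vamp2*. Both strands were searched, and the matches are a description of letters in these windows.

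Among the vesicle proteins, 3 of 10 genes were lower in WAR N (30.0%, against 9.38% of all genes). In this class 1 gene was higher, and the class median was −0.11. *Syt2* encodes a synaptotagmin that senses calcium for fast release. Its log2 values were 10.80, 11.16, 11.13 and 10.80 in Wistar N replicates 1 to 4 and 10.39, 10.08, 9.78 and 10.37 in WAR N replicates 1 to 4. Every WAR N array lay below every Wistar N array, with a log2 difference of −0.82 (SE 0.18, adjusted p = 0.00609). *Syn2* encodes a synapsin, which tethers vesicles to each other in the reserve pool. In Wistar N it measured 10.31, 10.23, 10.33 and 10.02, and in WAR N 9.63, 9.84, 9.27 and 9.76. The groups did not overlap, and WAR N was lower by a log2 difference of −0.60 (SE 0.11, adjusted p = 0.00324). *Syp*, which encodes the vesicle membrane protein synaptophysin, was also lower, with a mean of 11.42 ± 0.18 (SD, n = 4) in WAR N and 11.95 ± 0.15 (SD, n = 4) in Wistar N (log2 difference −0.53, adjusted p = 0.00219).

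Of the 3 genes of the SV2 family, *Sv2b* alone was called in naïve rats, and the family members were not tested against each other. *Sv2b* was 9.65, 9.23, 9.38 and 9.30 in Wistar N and 10.31, 10.21, 9.91 and 10.15 in WAR N. All 4 WAR N arrays lay above all 4 Wistar N arrays, with a log2 difference of 0.76 (SE 0.12, adjusted p = 0.00149), a 1.69-fold higher signal. For *Sv2a*, the drug target, the Wistar N values were 11.16, 10.90, 10.96 and 10.76 and the WAR N values 10.99, 10.71, 10.27 and 10.9973. The groups overlapped, and the difference of −0.20 (95% confidence interval −0.55 to 0.14, adjusted p = 0.397) did not pass the test, an interval that leaves room for a fall of as much as 0.55 or a small rise. *Sv2c* had a difference of 0.10 (95% confidence interval −0.29 to 0.49). The other vesicle proteins, *Syn1*, *Syt1*, *Syngr1* and *Rab3a*, which encodes a small GTPase of the vesicle surface, ranged from −0.19 (*Syn1*) to 0.16 (*Syngr1*) and did not pass. The *Syn1* values of Wistar N alone spanned 9.69 to 11.16.

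Of the 11 SNARE and priming genes, 3 were lower in WAR N (27.3%, against 9.38% of all genes). None was called higher, and the class median was −0.01. *Cplx1* encodes complexin, a small protein that binds the assembled SNARE complex. It measured 11.31, 11.98, 11.69 and 11.23 in Wistar N and 10.54, 10.45, 10.49 and 10.82 in WAR N. The groups were apart, with a log2 difference of −0.97 (SE 0.17, adjusted p = 0.00233). *Nsf* encodes the ATPase that takes spent SNARE complexes apart. Its Wistar N values were 11.82, 11.88, 12.14 and 11.95 and its WAR N values 11.26, 11.19, 10.69 and 11.41. The difference of −0.81 (SE 0.13, adjusted p = 0.00145) again left the groups apart. *Stx1a* encodes syntaxin, a SNARE of the plasma membrane. It was 7.67 in Wistar N replicate 1 and 8.28, 8.42 and 8.25 in the other Wistar N arrays, against 7.56, 7.60, 7.54 and 7.54 in WAR N. WAR N was lower by a difference of −0.59 (SE 0.13, adjusted p = 0.00524). Wistar N replicate 1 lay close to the WAR N values, and without it the difference was −0.76. A second probe set named *Stx1a* holds identical values and adds no evidence.

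The remaining SNARE and priming genes were not called. The paralog *Cplx2* had a naïve difference of 0.41 (95% confidence interval 0.01 to 0.82) and the priming factor *Unc13c* one of 0.30 (0.02 to 0.57), the opposite sign to *Cplx1*, with adjusted p of 0.135 and 0.112. *Snap25* (0.26) and *Vamp1* (0.27), which encode SNAREs of the plasma membrane and of the vesicle, and *Napa* (0.19), whose product brings NSF to the SNARE complex, were above 0, with overlapping groups. *Vamp2* (−0.17), *Unc13a* (−0.13) and the calcium sensor *Doc2b* (−0.01) were below 0. None of these 8 genes passed the adjusted threshold.

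None of the 5 active zone genes was called in naïve rats by limma, and 0 had an unadjusted p under 0.05. *Rims1* and *Rims2* encode RIM proteins that tie vesicles to calcium channels, *Bsn* and *Pclo* the large scaffolds bassoon and piccolo, and *Erc2* an ELKS scaffold. Their differences ranged from −0.23 (*Bsn*) to 0.09 (*Erc2*), with a median of −0.05. The intervals were fairly narrow for *Pclo* (−0.12 to 0.30) and *Erc2* (−0.12 to 0.31) and wider for *Bsn* (−0.63 to 0.17).

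In clathrin endocytosis, 4 of 13 genes were lower in WAR N (30.8%, against 9.38% of all genes) and 0 were higher. Of the 13 differences, 11 were below 0, with a class median of −0.20. *Ap2m1* encodes the mu subunit of AP-2, which recognizes sorting motifs in cargo. It measured 11.47, 11.93, 12.15 and 12.08 in Wistar N and 10.74, 10.76, 10.84 and 10.98 in WAR N. The groups lay far apart, with means of 11.91 ± 0.31 and 10.83 ± 0.11 (SD, n = 4 each) and a difference of −1.08 (95% confidence interval −1.35 to −0.81, adjusted p = 0.0003), a 2.11-fold lower signal. *Ap2a1* encodes an alpha subunit of AP-2. Its values were 9.97, 10.08, 10.20 and 9.57 in Wistar N and 9.66, 9.38, 8.80 and 9.66 in WAR N. The difference of −0.58 (SE 0.19, adjusted p = 0.0440) passed the limma threshold although Wistar N replicate 4 lay below 2 of the WAR N arrays. *Dnm1* encodes the dynamin that pinches vesicles from the membrane. It was 11.39, 11.44, 11.41 and 11.09 in Wistar N and 10.94, 10.87, 10.37 and 11.09 in WAR N. WAR N was lower by −0.51 (SE 0.15, adjusted p = 0.0231), and replicate 4 of each strain met at the edge of the groups. *Synj1*, which encodes the lipid phosphatase synaptojanin that helps strip the clathrin coat, was lower by −0.32 (SE 0.10, adjusted p = 0.0307). Of 18 alternative settings, 9 ended the naïve call of *Synj1*, 8 that of *Ap2a1* and 6 that of *Dnm1*, with no change of direction.

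The 5 subunit genes of AP-2 all had naïve differences below 0 but unequal ones. Besides the mu subunit and *Ap2a1*, *Ap2a2* had −0.31 (95% confidence interval −0.56 to −0.07, adjusted p = 0.0671), the beta subunit gene *Ap2b1* −0.20 (−0.44 to 0.05) and the sigma subunit gene *Ap2s1* −0.20 (−0.47 to 0.07), and these 3 did not pass. A dimmer probe set of *Ap2b1* had −0.36 (SE 0.11, adjusted p = 0.0303 among all probe sets), so the probe sets of that gene fell on different sides of the threshold. The clathrin genes themselves were not called. The heavy chain gene *Cltc* had −0.10 (−0.29 to 0.08), and the light chain genes *Clta* and *Cltb* had 0.01 and −0.14. *Amph* (0.16), *Sh3gl2* (−0.17) and *Snap91* (−0.06), which encode amphiphysin, endophilin and the adaptor AP180, were not called.

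Single genes were also compared by a two-sided exact permutation test over the 70 ways to split 8 arrays into 4 and 4, whose smallest possible p is 0.0286. Of the 11 called genes, 10 reached that value, and *Ap2a1* had an exact permutation p of 0.0857. The test used the same arrays as the calls and is not independent support for them. Leaving out Wistar N replicate 1 left all 11 called, with differences of −1.23 for *Ap2m1*, −1.05 for *Cplx1* and 0.84 for *Sv2b*. The median of the vesicle proteins was then 0.10 and that of the SNARE and priming genes 0.13, both of the opposite sign to the full fit. With all arrays the SNARE and priming median lay near 0 (−0.01), so its sign is not firm. The median of the active zone genes was 0.06 without Wistar N replicate 3.

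**Figure D2:**
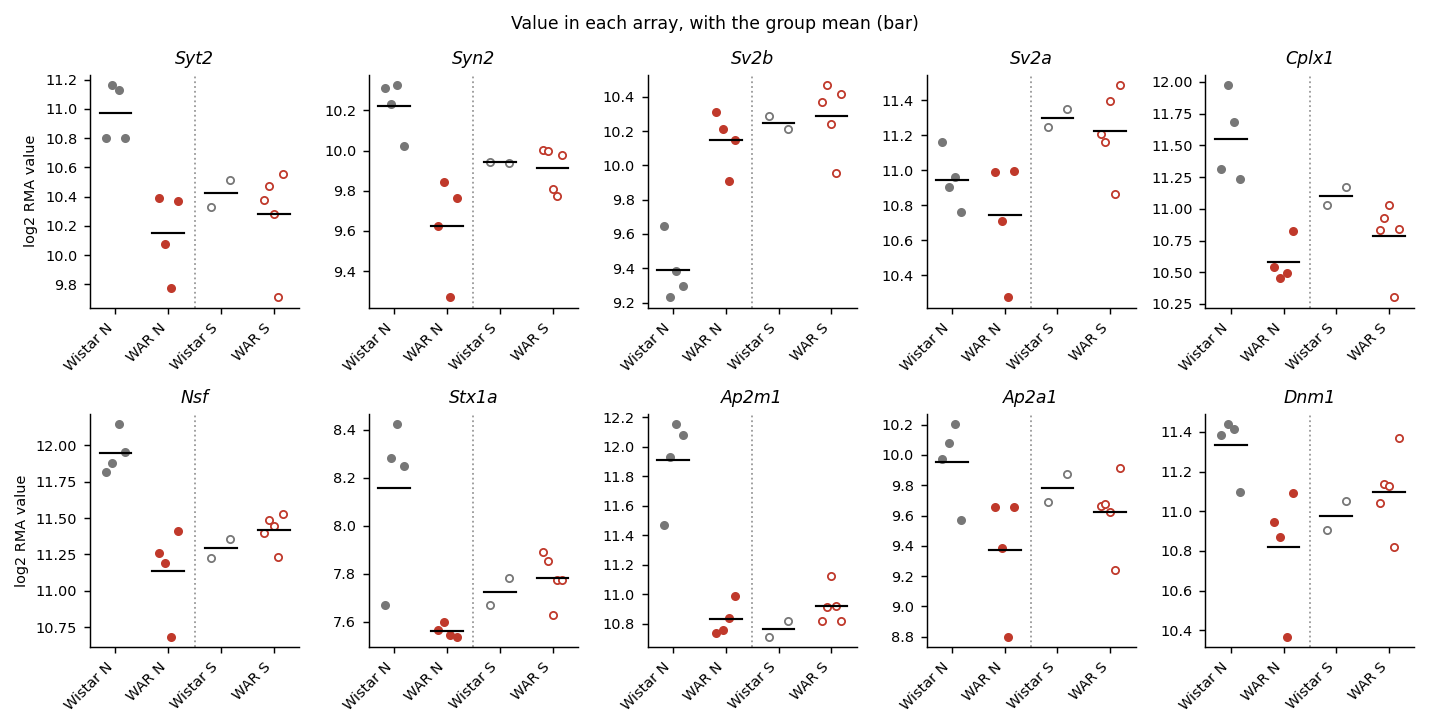
Log2 value in every array for 10 genes, with naïve arrays as filled points, stimulated arrays as open points, Wistar in grey, WAR in red and bars at the group means. The dotted line parts the naïve from the stimulated arrays, which appear to have been normalized apart and whose levels cannot be set side by side; the WAR N and Wistar N points are separate in 8 of the 10 panels, all but *Sv2a* and *Ap2a1*.

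The arrays carry running numbers in their labels that fall into 2 sets, each with 2 Wistar N and 2 WAR N arrays. The stimulated arrays are split unevenly, with both Wistar S and 3 WAR S arrays in set 1 and WAR S replicates 3 and 4 in set 2. No source says what the sets are. All 11 called genes had the same sign in both sets. The sets are parts of the arrays that gave the calls, so this agreement is not independent support. *Ap2m1* had a difference of −1.03 in set 1 and −1.13 in set 2, *Cplx1* −0.77 and −1.17, *Nsf* −0.66 and −0.96, and *Sv2b* 0.79 and 0.72. Over the 39 genes the differences of the 2 sets, which share no array, had a Pearson r of 0.815 and a Spearman rho of 0.755, with the same sign in 31, where r over all 14506 genes was 0.652 and 67.1% had the same sign. These correlations are across genes, which are not independent replicates. Within set 1 alone 4 of the 39 genes were called (*Ap2m1*, *Nsf*, *Cplx1* and *Sv2b*), against 1.5% of all genes, and within set 2 alone 12, against 26.0%. *Syngr1* had opposite signs, −0.14 in set 1 and 0.47 in set 2.

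**Figure D3:**
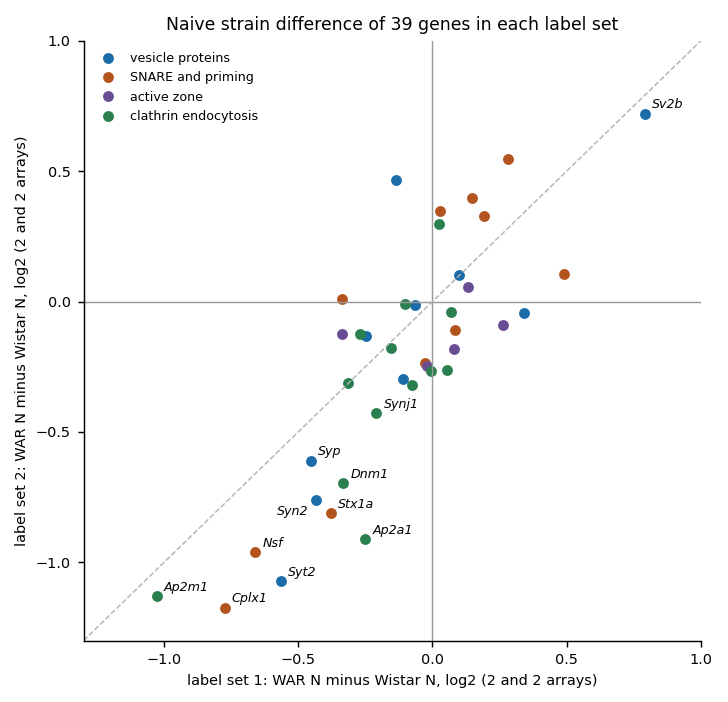
Naïve strain difference (log2, WAR N minus Wistar N) of the 39 genes in label set 1 (x axis) and label set 2 (y axis), with 2 arrays per strain in each and the dashed line at equal differences. The 11 genes called over all naïve arrays are named; 10 of them lie at the lower left, and *Sv2b* is the 1 named gene at the upper right.

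After sound, none of these genes passed the test between the strains. Between WAR S and Wistar S, limma called 0 of the 39 genes, against 0.414% of all genes, and 1 gene (2.56%), *Doc2b*, had an unadjusted p under 0.05, against 6.85% of all genes. With array weights, which follow the spread of each array about its group, 3 genes were called, where 9.88% of all genes were. These were *Ap2b1*, *Doc2b* and *Napa*, all higher in WAR S. The weights were 0.907 to 2.86 in stimulated arrays and 0.101 to 1.18 in naïve arrays. Ties make the spread among stimulated arrays smaller, so a higher weight there cannot be read as better quality. At a fold change of at least 2 with an unadjusted p of at most 0.05, 0 of the 39 genes were called, against 0.269% of all genes. The median difference was −0.03, with 18 of 39 above 0, where the median of all genes was 0.01, with 55.5% above 0. The differences ran from −0.32 (*Cplx1*) to 0.42 (*Doc2b*). The median width of the 95% confidence interval, which is not adjusted over genes, was 0.33 to either side. A call needs a small adjusted p, so changes larger than that could be missed in a typical member. Over all genes, 60 were called here and 3037 in naïve rats. The lack of calls here therefore does not show that the naïve differences were absent after sound. *Doc2b* was 7.92 and 7.99 in Wistar S and 8.39, 8.34, 8.25, 8.19 and 8.72 in WAR S replicates 1 to 5. All 5 WAR S arrays lay above both Wistar S arrays, with a difference of 0.42 (95% confidence interval 0.09 to 0.76, adjusted p = 0.472), and the exact permutation p was 0.0476, the smallest that 21 splits of 7 arrays allow. In 10 of the 39 genes (25.6%) the groups did not overlap, against 20.7% of all genes, a share of the list that lies close to the background.

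WAR S replicates 3 and 4, the 2 arrays of set 2, stood apart from the other WAR S arrays in several of 14 listed genes that neuronal activity induces. *Fos* was 9.34 and 9.003 in them and 7.65 to 7.70 in the other 3, *Egr1* 11.24 and 11.22 against 9.96 to 10.29, and *Npas4* 8.47 and 8.67 against 7.05 to 7.29. *Egr3* did not separate them, at 9.04 and 8.79 against 8.71 to 8.98. Nor did *Dusp6*, *Ier2* and *Homer1* of the same list separate the 2 arrays. Without these 2 arrays, in set 1 alone, limma again called 0 of the 39 genes, against 0.0965% of all genes. Astrocyte markers were below 0 in 14 of 15 (0 called), with summed levels of 15.66 to 15.74 in Wistar S and 15.37 to 15.49 in WAR S. Endothelial markers were above 0 in 14 of 14 (2 called), at 11.88 to 11.90 in Wistar S and 12.13 to 12.72 in WAR S. Of 3 red blood cell markers 1 was called lower in WAR S, and their summed level was 11.04 to 11.51 in Wistar S and 10.11 to 10.29 in WAR S. Beside these marker counts, 55.5% of all genes were above 0 and 0.414% were called. The part of these cells in the stimulated differences was not tested.

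The genes that differed in naïve rats, chosen by their naïve values, had the following stimulated values. *Ap2m1* was 10.71 and 10.82 in Wistar S and 10.82, 10.91, 11.12, 10.92 and 10.82 in WAR S. Wistar S replicate 2 and WAR S replicates 1 and 5 held the identical value 10.8161. The 7 stimulated arrays thus held 5 distinct values of *Ap2m1*, and such ties make the spread among stimulated arrays smaller. The difference was 0.15 (95% confidence interval −0.17 to 0.47), whose lower bound lies above the naïve difference. *Nsf* was 11.23 and 11.36 in Wistar S and 11.40, 11.49, 11.45, 11.24 and 11.53 in WAR S, with overlapping groups and a difference of 0.13 (−0.20 to 0.46). *Cplx1* was 11.03 and 11.18 in Wistar S and 10.83, 10.93, 11.03, 10.30 and 10.84 in WAR S. It kept a difference below 0, of −0.32 (−0.75 to 0.12), with replicate 4 the lowest of WAR S. *Sv2b* was 10.29 and 10.21 in Wistar S and 10.37, 10.47, 10.24, 9.95 and 10.41 in WAR S, a difference of 0.04 (−0.27 to 0.35). WAR S arrays lay on both sides of the Wistar S values for *Sv2b*.

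*Syt2* was 10.33 and 10.52 in Wistar S and 10.38, 10.47, 10.28, 9.71 and 10.55 in WAR S, a difference of −0.14 (−0.59 to 0.31). *Syn2* was 9.94 in both Wistar S arrays and 10.004, 9.997, 9.81, 9.77 and 9.98 in WAR S, a difference of −0.03 (−0.32 to 0.26). The WAR S arrays surrounded the Wistar S values in both genes. *Stx1a* was 7.67 and 7.78 in Wistar S and 7.89, 7.85, 7.63, 7.77 and 7.77 in WAR S, a difference of 0.06 (−0.26 to 0.37). *Dnm1* was 10.90 and 11.05 in Wistar S and 11.04, 11.14, 11.13, 10.82 and 11.37 in WAR S, a difference of 0.12 (−0.25 to 0.49). *Ap2a1* was 9.69 and 9.88 in Wistar S and 9.66, 9.68, 9.62, 9.24 and 9.91 in WAR S, a difference of −0.16 (−0.64 to 0.32). Groups overlapped in all of these genes. *Sv2a* was 11.25 and 11.35 in Wistar S and 11.21, 11.16, 11.40, 10.86 and 11.49 in WAR S. Its difference of −0.08 (−0.48 to 0.33) turned to 0.01 without WAR S replicate 4, and no strain difference of *Sv2a* was detectable with these arrays.

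By class, the stimulated medians were −0.05 for vesicle proteins, −0.05 for SNARE and priming genes, −0.04 for active zone genes and 0.06 for clathrin endocytosis. *Syt1* (0.32), *Napa* (0.27), *Ap2b1* (0.27) and *Clta* (0.20) were above the Wistar S arrays in all 5 WAR S arrays, as *Doc2b* was, and *Syp* (−0.21), *Cplx1*, *Cplx2* (−0.25), *Rims1* (−0.21) and *Rims2* (−0.19) were below them in all 5. None of these 10 passed the adjusted threshold in the unweighted fit.

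Sound here includes the seizures that the study describes in stimulated WAR. Whether the strain difference itself differed between stimulated and naïve rats was tested as the interaction of strain and sound, the stimulated minus the naïve difference. It was called for 1 of the 39 genes (2.56%), *Ap2m1*, against 0.103% of all genes, and 12 of the 39 (30.8%) had an unadjusted p under 0.05, against 15.0% of all genes. With array weights 13 of the 39 were called, against 23.1% of all genes. The interaction of *Ap2m1* was 1.23 (95% confidence interval 0.81 to 1.65, adjusted p = 0.0388). It had an adjusted p of at most 0.05 in 9 of 23 other settings, among them neither the fit with the replicate number as a block nor set 1 alone, although its size stayed between 1.11 and 1.38. With 1 array left out it passed without Wistar N replicate 1, Wistar N replicate 4 or WAR N replicate 4 and missed without each of the other 12. *Nsf* followed with 0.94 (0.51 to 1.37, adjusted p = 0.0848) and *Sv2b* with −0.72 (−1.12 to −0.31, adjusted p = 0.124), and neither passed. Since the interaction subtracts the naïve difference, genes called in naïve rats tend to have interactions of the opposite sign by that choice, and their interactions are given as values only. In clathrin endocytosis 12 of 13 interactions were above 0 (median 0.19), as were 8 of 10 in the vesicle proteins (median 0.19), 7 of 11 in SNARE and priming (median 0.08) and 1 of 5 in the active zone (median −0.09), where 48.2% of all genes were above 0. Without Wistar N replicate 1, 8 of the 39 genes and 20.4% of all genes were called. Across the 39 genes the stimulated and naïve differences, which share no array, had a Pearson r of 0.137 (rho 0.088), against 0.333 over all genes.

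A wider list of 80 further genes of the same classes was taken up beside the 39. In naïve rats 24 of the 80 were called (30.0%), against 20.9% of all genes. Of these, 18 were lower (22.5%, against 9.38%) and 6 were higher in WAR N, where 11.6% of all genes were higher. The median was −0.12, against 0.02 over all genes. In stimulated rats and for the interaction limma called 0 of the 80. An unadjusted p under 0.05 was found for 6 (7.50%, against 6.85% of all genes) in stimulated rats and for 17 (21.2%, against 15.0%) for the interaction. Among 28 further vesicle proteins, 9 were lower and 1 was higher. *Slc32a1*, which encodes the vesicular transporter of GABA and glycine, had the largest of these differences, −1.14 (SE 0.20, adjusted p = 0.00232), and *Slc17a6*, which encodes a vesicular glutamate transporter, was lower by −0.62 (SE 0.16, adjusted p = 0.0143). *Syngr3* was lower by −0.56 and *Syt17* higher by 0.58. Among 13 further SNARE and priming genes, 3 were higher, *Stx3* (0.51), *Snap29* (0.34) and *Snap47* (0.33), and *Vamp3* was lower (−0.54). Among 19 further active zone genes, *Ppfia4* (−0.61), *Ppfia3* (−0.43), which encode liprins, and *Rims4* (−0.37) were lower and *Cask* (0.35) was higher. Among 20 further endocytosis genes, 5 were lower, among them *Pacsin1* (−0.62), *Necap1* (−0.62), whose product binds AP-2, and the scaffold gene *Itsn1* (−0.46), and 1, *Sh3glb1* (0.52), was higher. Without Wistar N replicate 1, 41 of the 80 were called, where 41.1% of all genes were. Without Wistar N replicate 3, 14 were called, a count given without the share over all genes in that fit. Within set 1 alone 2 were called, against 1.5% of all genes.

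**Figure D4:**
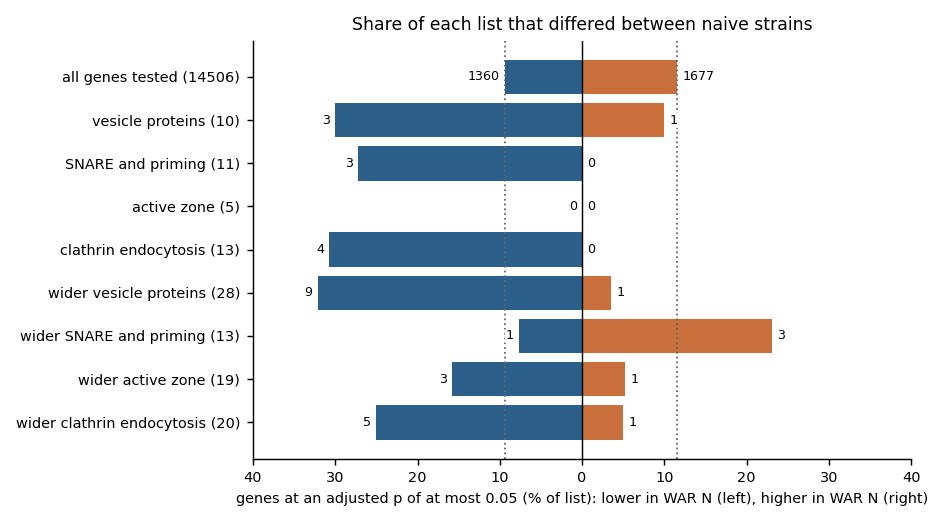
Share of each list (%, x axis) called lower (left, blue) or higher (right, orange) in WAR N than in Wistar N at an adjusted p of at most 0.05, with the number of genes beside each bar and the list size in brackets. Dotted lines mark the shares over all genes, 9.38% lower and 11.6% higher; 3 of the 4 classes of the 39 genes reach beyond the lower line, and the active zone has no called gene.

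In tissue that mixes cell types, fewer cells of a kind and less RNA in each of them cannot be told apart. Among 18 general markers of neurons, 2 were higher (*Dcx* and *Thy1*) and 4 lower (*Eno2*, *Gap43*, *Nefh* and *Nefm*) in WAR N, and their summed log2 level was 15.04 to 15.37 in Wistar N and 15.00 to 15.15 in WAR N. Of 6 markers of excitatory and inhibitory neurons, 4 were lower (*Slc32a1*, *Gad1*, *Pvalb* and *Slc17a6*) and 1, *Slc6a5*, was higher, and the summed level was 12.98 to 13.39 in Wistar N and 12.62 to 12.78 in WAR N. *Gad1* was lower by −0.83 and *Pvalb*, which marks fast-spiking neurons, by −0.64. The summed level of 15 astrocyte markers was 15.44 to 15.49 in Wistar N and 15.17 to 15.34 in WAR N (7 lower, 0 higher). That of 13 microglial markers was 12.04 to 12.25 in Wistar N and 12.51 to 12.58 in WAR N (5 higher, 0 lower). That of 14 endothelial markers was 11.50 to 12.70 in Wistar N and 12.07 to 12.68 in WAR N (5 higher, 0 lower), and of 13 oligodendrocyte markers 1 was higher and 2 were lower (14.81 to 15.25 in Wistar N, 15.00 to 15.09 in WAR N). Wistar N replicate 1 stood apart in several of these markers. Without it the endothelial level of Wistar N was 11.50 to 11.61, below all WAR N arrays, and that of the oligodendrocyte markers 14.81 to 15.02. In that array the neuronal markers *Nefm* (9.71) and *Gap43* (10.01) lay below the other Wistar N arrays (11.04 to 11.62 and 11.36 to 11.54), the endothelial *Flt1* (9.25) lay above them (7.28 to 7.44), and the oligodendrocyte *Cldn11* (12.11) lay above them (10.37 to 10.46). Of 7 midbrain tectum markers, 2 were lower, among them *Slc17a6*, and 0 higher. Their summed level was 12.75 to 12.99 in Wistar N and 12.56 to 12.61 in WAR N. *Slc17a6* is also counted in the wider list and among the markers of excitatory and inhibitory neurons. *Slc32a1* is likewise in both the wider list and those neuron markers, so these counts are not separate observations. The summed level of the 3 red blood cell markers was 10.64 to 11.29 in Wistar N and 9.82 to 10.52 in WAR N. That sum follows *Hbb* (mean 10.31), since *Alas2* (6.72) and *Slc4a1* (6.37) were far dimmer. Of the 3, only *Hbb* was called, as lower (−0.67), and only *Hbb* did not overlap between the strains. Of 13 cerebellar markers 1 was higher, *Pcp4*, and 2 were lower, *Cbln1* (−0.89) and *Barhl1* (−0.66). Their summed level was 13.04 to 13.35 in Wistar N and 13.30 to 13.50 in WAR N. Beside these marker counts, 9.38% of all genes were called lower and 11.6% higher in WAR N. No marker was at 0. The part of these cell types in the naïve differences of the release and endocytosis genes was not tested.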

How the data were processed

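Total RNA of the IC was hybridized to 15 Affymetrix arrays. The log2 values deposited by the authors come from RMA (background correction, quantile normalization, probe set summary), whose version is not stated in the sources read. Identical values shared among stimulated arrays, and by none of the pairs of a stimulated and a naïve array, were read as separate normalization, and such ties make the spread among stimulated arrays smaller. Of 29214 probe sets, 15310 carried 1 symbol in the platform annotation, 323 several and 13581 none, and 15279 matched the GRCr8 gene table by gene ID. For the 527 genes with several probe sets the brightest was kept. The coordinates given for promoters come from the RefSeq table, not from the arrays.

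Tests used limma 3.58.1 in R 4.3.3 with 1 mean for each of the 4 groups and a spread shared by all 15 arrays (lmFit, eBayes). Benjamini-Hochberg adjustment was over 14506 genes. The code was run on simulated data with independent values and the same spread in every array. Those data had no ties and no outlying array, so that run cannot show how the tests behave with them. The number of arrays limits the precision. SAM, named in the methods, was not run. The members and lists were chosen with earlier results of these data known. Any member could be named. Array values were given for members called in stimulated rats or for the interaction, for *Sv2a* and for the 3 largest called naïve differences of each class, and those of *Doc2b* were added after its values were seen. Of the wider list up to 4 called genes a class were named.

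Alternatives were the label set as a block, 1 label set alone, the replicate number as a block, a model of the 2 compared groups alone, all probe sets, the dimmest 25% of genes left out, trend and robust eBayes, array weights, cyclic loess, and each array left out in turn. Replicate numbers did not pair the arrays.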

Additional observations from a re-analysis of the deposited data

Results flagged for a closer look

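The strain difference of *Ap2m1* differed between stimulated and naïve rats by 1.23 on the log2 scale, by the interaction term. The call held in 9 alternative settings and was lost in 14. Its stimulated values include ties, and the naïve and stimulated arrays appear to have been normalized apart.

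In 7 of 117 checks of a gene within a group of 4 or 5 arrays, 1 array lay far from the others, where chance gives about 1 in 20. *Cplx1* (10.30, others 10.83 to 11.03), *Rims1* (9.64, others 10.04 to 10.12) and *Pclo* (10.29, others 10.46 to 10.52) were lowest in WAR S replicate 4. *Syt1* was highest in WAR S replicate 5 (12.15, others 11.94 to 11.99) and *Clta* in WAR S replicate 3 (11.22, others 10.77 to 10.87). *Vamp2* was highest in WAR N replicate 4 (10.20, others 9.93 to 9.97), and *Dnm1* was lowest in Wistar N replicate 4 (11.09, others 11.39 to 11.44).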

How the results depend on the processing

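The naïve calls of *Ap2m1*, *Nsf*, *Cplx1* and *Sv2b* passed in all 18 alternatives. *Synj1* missed the threshold in 9, *Ap2a1* in 8, *Dnm1* in 6, *Stx1a* in 2, and *Syn2*, *Syp* and *Syt2* in 1 each, with no change of direction. The naïve count of 11 was 7 in a model of the 2 compared groups alone (879 of all genes), 4 in label set 1 (217 of all genes) and 8 to 17 with 1 array left out, 17 without Wistar N replicate 1 (5968 of all genes). The stimulated count was 3 with array weights and 0 in every other alternative. The interaction count of 1 was 0 in label set 1, 13 with array weights (3353 of all genes), 2 with cyclic loess, and 0 to 8 with 1 array left out, 0 without each of 12 arrays, 2 without WAR N replicate 4 and 8 without Wistar N replicate 1. The wider list's naïve count of 24 was 7 in a model of the 2 compared groups alone and 2 in label set 1. The number called over all genes also changed with the setting. A count without that number beside it cannot be read as a result about the list.

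With the replicate number as a block, 9 of the 39 genes were called in naïve rats, 0 in stimulated rats and 0 for the interaction. The share over all genes in that fit is not given here, so these counts cannot be read as a result about the list. Same-numbered arrays of the strains did not deviate together (r from −0.306 to 0.06), so the numbers do not pair them.

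Naïve class medians were 0.0803 (active zone, label set 1), −0.15 (active zone, array weights) and 0.0764 (vesicle proteins, array weights), and with 1 array left out ran from −0.22 to 0.10 for vesicle proteins, −0.14 to 0.13 for SNARE and priming and −0.0703 to 0.0588 for the active zone. Interaction medians were −0.0815 (SNARE and priming) and 0.0209 (active zone) with array weights, and −0.12 to 0.16 for SNARE and priming with 1 array left out. Small stimulated differences changed sign. *Syn2* was 0.0143 with the label set as a block, 0.0514 in label set 1, 0.0424 with the replicate block and 0.0032 with array weights, and *Syt2* was 0.0448 in label set 1. With 1 array left out, *Syn2* ran from −0.0523 to 0.0051, *Synj1* from −0.0135 to 0.15, *Sv2b* from −0.0049 to 0.12 and *Sv2a* from −0.14 to 0.0129. The cause of these changes was not tested. Only 2 Wistar S arrays limit the stimulated comparison, and signal over background cannot be recomputed from processed values.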
